A study of Mus musculus with 4 samples.

Results

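Macrophages of the dorsal root ganglion (DRG), the cluster of sensory neuron cell bodies beside the spinal cord, were read from droplet single-cell RNA counts of lumbar ganglia. A cell barcode was taken as a macrophage when it held at least 200 genes, at most 20% mitochondrial UMIs (unique molecular identifiers, each counting 1 captured RNA), UMIs of at least 2 of the 3 complement genes C1qa, C1qb and C1qc, and at least 1 UMI of Csf1r, Mrc1, Cx3cr1 or Adgre1. Barcodes with a UMI of Ebf1, Cdh5 or Scn10a were left out. The rule found 116 macrophages among 5139 kept DRG barcodes, 54 of 2201 in the 1NMPP1 library and 62 of 2938 in the vehicle (VEH) library. The 4 libraries of the series held 26153 kept barcodes in all, and the same rule found 102 macrophages in the growth plate, 47 in the 1NMPP1 and 55 in the VEH library.

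All mice were of the same engineered genotype, with a sensory neuron receptor kinase altered so that the compound 1NMPP1 can block it, and all had an injured growth plate, the cartilage near the end of a growing bone. Tissue came 7 days after the injury, as L1 to L5 ganglia of the treated side or as the distal femur around the growth plate. The 1NMPP1 mice received intraperitoneal injections of 17 µg/g from a 5 mM solution 48 h and 2 h before surgery and then drank 40 µM 1NMPP1, while the VEH mice received vehicle with DMSO. The sources used here give neither age, strain nor the number of animals behind a library. Each treatment group of a tissue has 1 library, so a difference between 1NMPP1 and VEH cells has no replicate check and carries no p-value. All intervals below are exact 95% intervals that cover counting error only.

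Resident macrophages of peripheral nerve and ganglion clear dead cells and myelin debris, present antigen and release cytokines and growth factors, and their number and state change after nerve injury. Textbook subsets differ in origin and place. Perivascular and connective tissue macrophages carry scavenger and lectin receptors such as Lyve1, Folr2, Stab1 and Cd163, and cells derived recently from blood monocytes often carry the chemokine receptor Ccr2 and much MHC class II, the complex that shows peptides to helper T cells. Macrophages that lie close to neurons share genes with microglia, among them P2ry12, Tmem119, Siglech and Fcrls.

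The genes that chose the cells are given as a description. C1qb was detected in 54 of 54 1NMPP1 and 62 of 62 VEH cells, C1qa in 54 of 54 1NMPP1 and 59 of 62 VEH cells and C1qc in 53 of 54 1NMPP1 and 57 of 62 VEH cells. Csf1r, the receptor for the macrophage growth factors CSF1 and IL-34, was detected in 50 of 54 1NMPP1 and 55 of 62 VEH cells, and Mrc1, the mannose receptor CD206, in 48 of 54 1NMPP1 and 53 of 62 VEH cells. Cx3cr1, the fractalkine receptor, was found in 39 of 54 1NMPP1 and 40 of 62 VEH cells, and Adgre1, which encodes F4/80, in 46 of 54 1NMPP1 and 50 of 62 VEH cells. C1qa stood at 3050.3 CPM in 1NMPP1 cells and 2392 CPM in VEH cells, Csf1r at 1235 CPM in 1NMPP1 cells and 749.8 CPM in VEH cells and Mrc1 at 1877 CPM in 1NMPP1 cells and 1144 CPM in VEH cells, where CPM is the field's usual scaling of counts to the total UMIs of the summed cells. All 3 C1q genes were present in 53 of the 54 and 54 of the 62 cells. Just inside the threshold lay 1 cell of the 1NMPP1 and 8 of the VEH library with 2 C1q genes, and just outside it 2 and 13 barcodes with 1 C1q gene and a receptor UMI. A further 8 1NMPP1 and 10 VEH barcodes were left out by a UMI of Ebf1, Cdh5 or Scn10a, and 3 and 6 for lack of a receptor UMI.

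In the summed cells the label held against genes outside the rule, by a smaller margin over monocytes than over all other barcodes. All 16 macrophage core genes that the rule did not use were measured. They summed to 11845 CPM in 1NMPP1 macrophages and 10412.5 CPM in VEH macrophages, against 1429 and 1156 CPM over the other kept barcodes of those libraries. DRG monocytes, barcodes with monocyte genes and Csf1r but no C1q UMI, carried 7121 and 6766 CPM of this list. The lowest VEH macrophage held 785 CPM. Lgmn, a lysosomal protease, was found in 52 of 54 1NMPP1 and 56 of 62 VEH cells, and Mertk, a receptor for the uptake of dying cells, in 33 of 54 1NMPP1 and 31 of 62 VEH cells. The macrophages held 353742 UMIs in the 1NMPP1 library and 674865 in the VEH library, with a median of 6269.5 and 9557 UMIs per cell. Male-called cells, with a Y-linked UMI and no Xist, made up 7 of 54 1NMPP1 and 27 of 62 VEH macrophages, and female-called cells 35 and 21, so treatment and sex were not balanced. No barcode was a macrophage in more than 1 library. The sequence of 1 1NMPP1 DRG macrophage barcode also occurred in the VEH growth plate library, and VEH DRG macrophages shared 1 with each growth plate library. Of the 1NMPP1 and VEH macrophages, 1 and 3 were among the barcodes with the highest doublet scores.

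Markers of other cell types were low in most of the cells. The 6 T cell markers were at 0 in 1NMPP1 macrophages and at 11.9 CPM in VEH macrophages, and the 5 mast cell markers were at 0 in both. Of the 6 fibroblast markers 5 were detected in each library, at 141 CPM in 1NMPP1 and 60.8 CPM in VEH macrophages, in 24 of 54 and 21 of 62 cells, and Pdgfra was at 0. Of the 6 endothelial markers 4 and 5 were detected, at 56.5 CPM in 1NMPP1 and 37.0 CPM in VEH macrophages, with Cldn5 at 0. Of the 6 B cell markers 2 and 4 were detected, at 39.6 CPM in 1NMPP1 and 20.7 CPM in VEH macrophages, in 14 and 12 cells, with Cd79a at 0. Over the other barcodes these lists came to 1812 and 1728 CPM, 404 and 436 CPM and 398 and 356 CPM in the 1NMPP1 and VEH libraries. The 6 markers of pericytes and smooth muscle came to 5.65 CPM in 1NMPP1 and 7.41 CPM in VEH macrophages, with Acta2 at 0. The 8 sensory neuron markers summed to 93.3 CPM in 1NMPP1 and 200.04 CPM in VEH macrophages, against 6592 and 6995 CPM over the other barcodes, and the 6 myelinating Schwann cell markers to 421 CPM in 1NMPP1 and 409 CPM in VEH macrophages, against 3403 and 3136 CPM. Single cells stood apart. The deepest 1NMPP1 cell, with 26124 UMIs, carried 98.6% of the neutrophil marker UMIs, which summed to 21632 CPM in 1NMPP1 and 332 CPM in VEH macrophages, and without it the 1NMPP1 value was 317 CPM. The deepest VEH cell, with 53434 UMIs, carried 85.8% of the osteoclast marker UMIs of its library, and hemoglobin and Alas2 UMIs, at 602 CPM in 1NMPP1 and 23985.5 CPM in VEH macrophages, came to 66.3% from 1 other VEH cell. One VEH cell with 19117 UMIs carried 88.4% of the satellite glia marker UMIs.

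MHC class II varied widely among the macrophages of each library. The 11 listed genes encode the class II chains, the invariant chain Cd74, the peptide loaders, the transactivator Ciita and the costimulators Cd86 and Cd40. They ranged over single cells from 136 to 84574 CPM in 1NMPP1 cells and from 52.3 to 86789 CPM in VEH cells. The lowest VEH value was 1 UMI in the barcode of 19117 UMIs, which held 319 satellite glia marker UMIs and 15 macrophage core UMIs. Ccr2 was detected in 14 of 54 1NMPP1 and 14 of 62 VEH macrophages, against 0.295% and 0.588% of glia, cells that should lack it, and in 5 of 49 and 7 of 60 macrophages once each cell was thinned to 1000 UMIs. Cells with a Ccr2 UMI had a median of 48956 CPM of the MHC class II list in the 1NMPP1 library and 42831 CPM in the VEH library. Cells without one had 10419.7 and 9338 CPM. The ranges overlapped, at 12359 to 84574 CPM with and 136 to 55319 CPM without Ccr2 in 1NMPP1 cells. In VEH cells they were 437 to 69734 CPM with and 52.3 to 86789 CPM without it. H2-Aa summed to 9316 CPM over the Ccr2-positive and 2765 CPM over the other 1NMPP1 cells, and to 5817 and 2151 CPM in the VEH library. Ciita, at 12 and 8 UMIs in 1NMPP1 cells with and without Ccr2 and at 11 and 4 UMIs in VEH cells, was also higher per UMI with Ccr2, at 132 against 30.4 CPM in 1NMPP1 and 57.9 against 8.25 CPM in VEH cells. Cd86 gave no common direction, at 1101 and 1483 CPM in 1NMPP1 cells and 1063 and 905 CPM in VEH cells. Ccr2-positive cells were the deeper ones, with a median of 6954.5 against 5949 UMIs in the 1NMPP1 and 12756 against 8801 UMIs in the VEH library.

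The class II genes share a promoter module, in which an X box bound by RFX factors and a Y box bound by NF-Y recruit the transactivator CIITA. The 250 bases before the start of H2-Aa and of H2-Eb1 are shown because both chain genes were higher in Ccr2-positive cells of both libraries, H2-Eb1 at 11078 against 2716 CPM in 1NMPP1 and 6427 against 2421 CPM in VEH cells. The sequences are from RefSeq on GRCm38.p6, 5′ to 3′ on the strand of the gene, with an X-core GCAAC and a Y-box CTGATTGG in capitals. H2-Aa lies on the minus strand at chr17:34287824-34288073 and H2-Eb1 on the plus strand at chr17:34305617-34305866.
H2-Aa: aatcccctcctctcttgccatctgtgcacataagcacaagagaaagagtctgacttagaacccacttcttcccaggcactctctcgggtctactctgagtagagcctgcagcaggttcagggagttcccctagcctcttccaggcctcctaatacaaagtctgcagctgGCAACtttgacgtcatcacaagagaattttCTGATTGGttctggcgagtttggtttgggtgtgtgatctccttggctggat
H2-Eb1: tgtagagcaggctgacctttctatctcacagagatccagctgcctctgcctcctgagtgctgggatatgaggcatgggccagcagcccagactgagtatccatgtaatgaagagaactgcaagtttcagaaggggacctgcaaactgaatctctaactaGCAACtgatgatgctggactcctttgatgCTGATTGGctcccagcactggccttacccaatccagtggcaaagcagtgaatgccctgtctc
The X-core begins 81 bases before the start in H2-Aa and 91 in H2-Eb1, and 25 and 24 bases separate it from the Y-box, so that the motifs do not overlap. On either strand, GCAAC stands in 29.9% and CTGATTGG in 3.83% of the 32851 promoter stretches of this length. The 2 motifs in this order and on 1 strand, 20 to 26 bases apart, a spacing chosen after seeing these promoters, stand in 11 stretches of 10 genes, 0.0335% of all, and 4 of those genes are H2-Aa, H2-Eb1, H2-Eb2 and H2-Oa. The other genes are Elavl2, Gstz1, Stard7, Tigd3, Ttll9 and Gm31836. Of the MHC class II list, 6 genes had a stretch in this set. By exact match 3 of the 6 held the pair and 3 held CTGATTGG at all, so the pair was not found across the list.

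**Figure D1:**
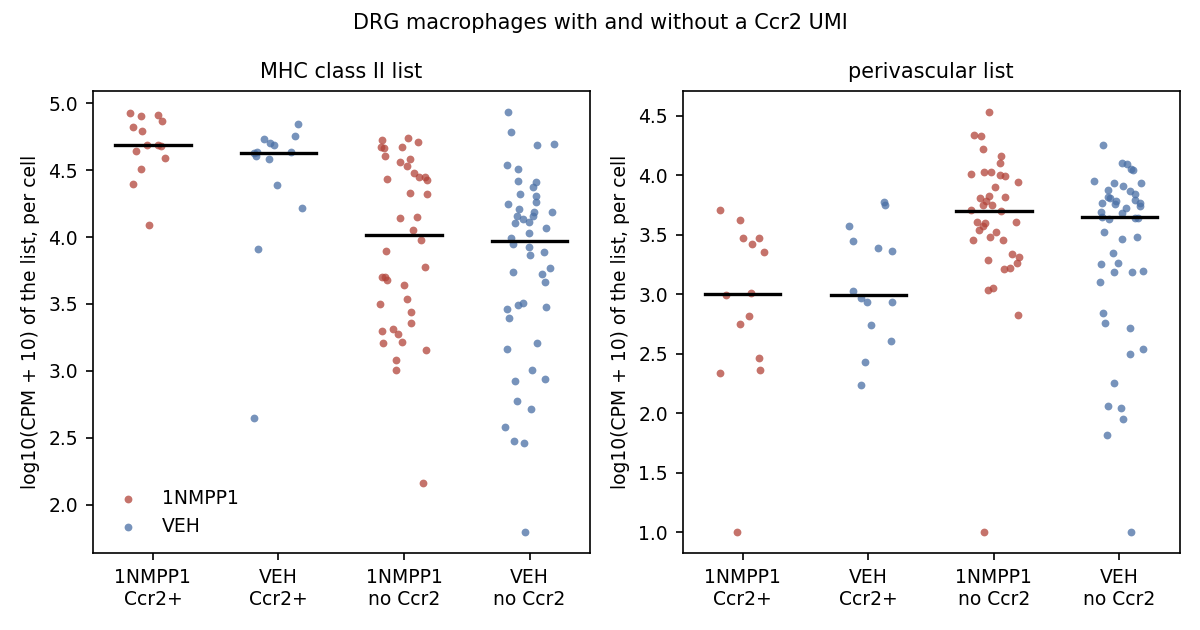
Each point is 1 DRG macrophage, placed by the log10 of its CPM plus 10 for the MHC class II list (left panel) and the perivascular list (right panel), in cells with (14 and 14) and without (40 and 48) a Ccr2 UMI of the 1NMPP1 (red) and VEH (blue) libraries. Black lines are medians; in both libraries MHC class II was higher with Ccr2, at 48956 and 42831 CPM, and the perivascular list lower, at 1000.4 and 986 CPM.

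Scavenger and lectin receptor genes lay at the other end. The 16 perivascular and connective tissue macrophage genes had a median of 1000.4 and 986 CPM in cells with Ccr2 of the 1NMPP1 and VEH libraries, and of 5018 and 4427 CPM in cells without it. Lyve1, Folr2 and Ccl8 had no UMI in any Ccr2-positive cell of either library. They were sparse without Ccr2 too, in 5, 12 and 6 1NMPP1 cells and 5, 11 and 6 VEH cells. Other list genes were found in many Ccr2-positive cells, Stab1 in 9 of 14 1NMPP1 and 8 of 14 VEH cells and Pf4 in 9 and 10. Stab1 stood at 253 CPM with and 932 CPM without Ccr2 in 1NMPP1 cells, and at 195 and 243 CPM in VEH cells. F13a1 did not share a direction, at 220.2 CPM with and 1141 CPM without Ccr2 in 1NMPP1 cells, and 553 and 435 CPM in VEH cells. At least 3 of Lyve1, Folr2, Cbr2, Stab1 and Clec10a were detected in 14 cells of each library. Of these, 0 of 14 1NMPP1 and 1 of 14 VEH cells held Ccr2, and their MHC class II medians were 5031 and 12553 CPM. Cells with 1 or 2 of the 5 genes had MHC class II medians of 30268 and 12198 CPM, and cells with none 34132 and 23543 CPM. In the 1NMPP1 library cells with most of these genes were lower than both. In the VEH library they were lower only than cells with none. Cells with none of the 5 genes, 11 and 14 in number, had a median of 1377 and 2978.5 UMIs and were of mixed depth. In the 1NMPP1 library 3 of the 11 lay above the median of all macrophages, at 9002 to 10775 UMIs, and in the VEH library 6 of the 14, at 9886 to 29764 UMIs. Ly6c2, a marker of classical monocytes, was detected in 3 of 54 1NMPP1 and 3 of 62 VEH cells.

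Microglia-like genes were spread over many cells, at unequal levels. The highest VEH cell held 198 list UMIs of 12490 (15853 CPM) and another VEH cell 88 of 5939, against a VEH median of 1493 CPM. Each of these cells held 1 UMI of the perivascular list. Fcrls was detected in 39 of 54 1NMPP1 and 38 of 62 VEH cells and Gpr34, a lysophosphatidylserine receptor, in 27 of 54 1NMPP1 and 24 of 62 VEH cells. Tmem119 was found in 9 of 54 1NMPP1 and 10 of 62 VEH cells and Siglech in 9 of 54 1NMPP1 and 13 of 62 VEH cells. P2ry12, the ADP receptor of microglia, was found in 14 of 54 1NMPP1 and 23 of 62 VEH cells, but also in 18.3% of 1NMPP1 and 23.3% of VEH glia, whose median depths were 8143 and 13204 UMIs. Thinned to 1000 UMIs, P2ry12 stood in 4.08% and 11.7% of macrophages and in 1.5% and 1.79% of glia. Sall1, the transcription factor of microglia, had no UMI in 1NMPP1 and 6 UMIs in 2 VEH cells, and a count of 0 of 54 allows up to 6.6% of cells with a UMI.

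Macrophages made up 2.45% of kept barcodes in the 1NMPP1 library (1.85 to 3.19%) and 2.11% in the VEH library (1.62 to 2.70%). The log2 ratio of 0.22 had an interval of -0.34 to 0.77, so that a difference was not detectable at this depth. Against barcodes without Ptprc, the pan-leukocyte gene, and with few hemoglobin UMIs, the shares were 6.63% and 3.82%, a log2 ratio of 0.79 (0.24 to 1.34). Against Ptprc-positive barcodes with few S100a8 and hemoglobin UMIs they were 9.03% and 10.0%, a log2 ratio of -0.15.

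UMIs were summed over the macrophages of each library, and a gene with at least 20 UMIs over both was counted as 2-fold higher or lower in 1NMPP1 cells. Of 6185 such genes, 434 (7.02%) were at least 2-fold higher, 460 (7.44%) lower, 894 (14.5%) either, and the median log2 ratio was 0.03. Male-called cells alone gave 463 higher and 557 lower of 3178 genes, and female-called cells alone 448 higher and 301 lower of 4258. Leaving mitochondrial, ribosomal and hemoglobin genes out of the totals gave 325 higher and 537 lower. The macrophage core list gave no gene past 2-fold of 16, with a median of 0.31. Within it Maf, a transcription factor of macrophages, had the highest ratio, with 741 CPM in 1NMPP1 cells and 406 CPM in VEH cells.

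**Figure D2:**
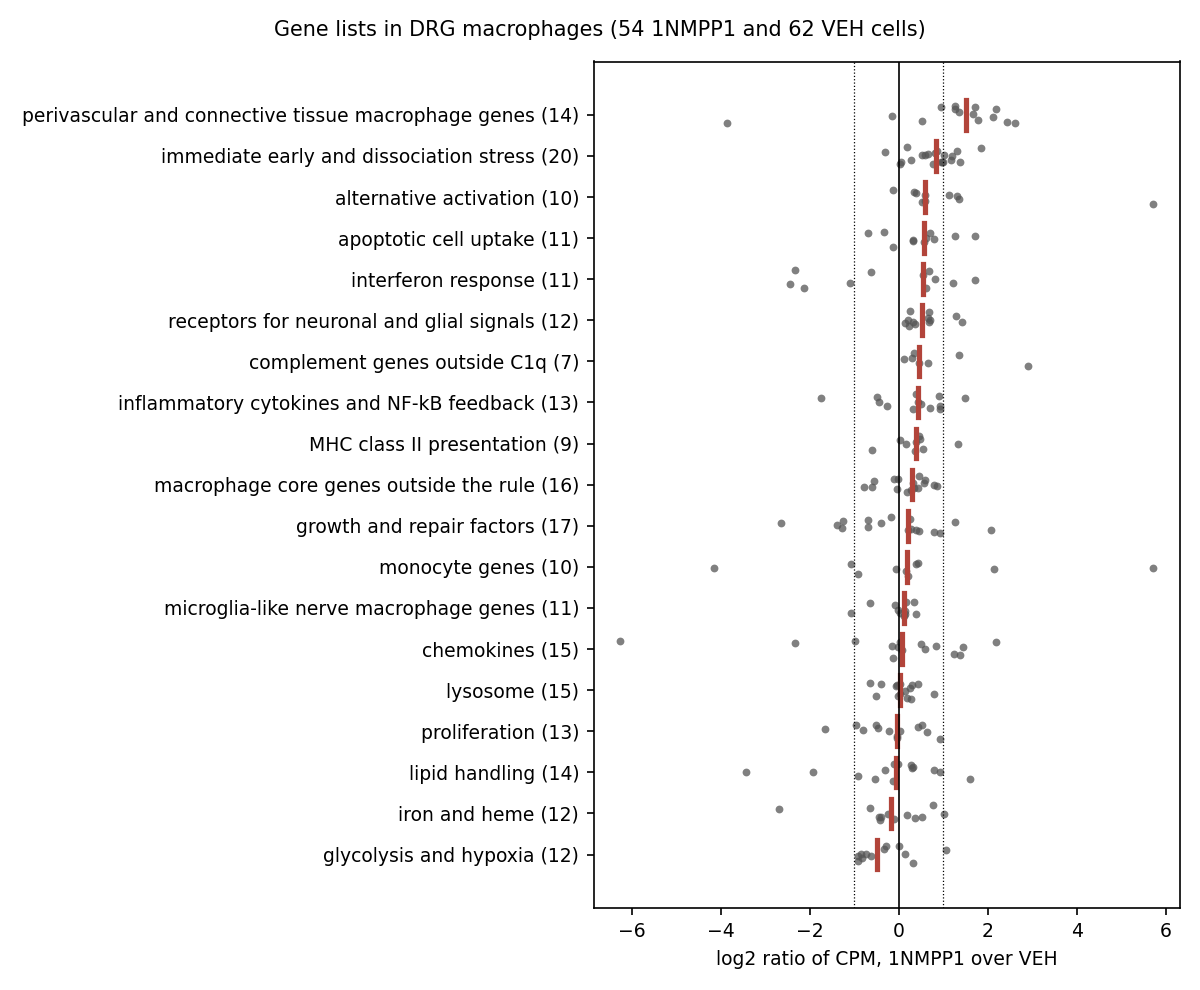
Each point is 1 gene with at least 20 UMIs over the DRG macrophages of both libraries, placed by its log2 ratio of CPM in 1NMPP1 over VEH cells within its list (the number of genes plotted is in brackets). Red bars are list medians and dotted lines mark 2-fold; the perivascular list lies farthest right, at 1.51, and glycolysis and hypoxia farthest left, at -0.49, among the 19 lists with at least 3 measured genes that are drawn.

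Of the perivascular and connective tissue macrophage genes, 14 of 16 were measured, 10 were at least 2-fold higher in 1NMPP1 macrophages and 1 was lower. The median log2 ratio was 1.51, against 0.03 over all 6185 genes, and the summed level was 6329.6 CPM in 1NMPP1 and 3263 CPM in VEH cells. Single cells overlapped widely, with a median of 3601 CPM in 1NMPP1 and 3164 CPM in VEH cells and a highest cell of 34460.1 and 17849 CPM. Among the receptors, Stab1, which binds phosphatidylserine and modified lipoproteins, had 268 UMIs (758 CPM) in 40 of the 54 1NMPP1 cells, against 155 UMIs (229.7 CPM) in 39 of the 62 VEH cells, a log2 ratio of 1.72 (1.43 to 2.02). Folr2, the folate receptor beta, had 64 UMIs (181 CPM) in 12 of the 54 1NMPP1 cells, against 35 UMIs (51.9 CPM) in 11 of the 62 VEH cells, a log2 ratio of 1.79 (1.19 to 2.44). Clec10a, a galactose-type lectin, had 70 UMIs (198 CPM) in 23 of the 54 1NMPP1 cells, against 52 UMIs (77.1 CPM) in 15 of the 62 VEH cells, a log2 ratio of 1.36 (0.82 to 1.91). With cells thinned to 1000 UMIs, Stab1 had a UMI in 51.0% of 1NMPP1 and 26.7% of VEH cells, and Folr2 in 5 of 49 and 1 of 60 cells. Pf4, at 51.0% and 55%, Fcna, in 2 of 49 and 3 of 60 cells, and Cd209f, in 0 of 49 and 3 of 60, went the other way.

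Lyve1, the hyaluronan receptor, had 56 UMIs (158 CPM) in 5 of the 54 1NMPP1 cells, against 17 UMIs (25.2 CPM) in 5 of the 62 VEH cells. A single cell held 60.7% of its UMIs in the 1NMPP1 and another 76.5% in the VEH library. Cbr2, a carbonyl reductase, gave a log2 ratio of 1.66 (1.18 to 2.17) and Colec12, a scavenger receptor, 2.12 (1.26 to 3.09). Among secreted products, Gas6, the bridging ligand of TAM receptors, had 140 UMIs (396 CPM) in 31 of the 54 1NMPP1 cells, against 111 UMIs (164 CPM) in 35 of the 62 VEH cells, a log2 ratio of 1.27 (0.90 to 1.64). Wfdc17, a small whey acidic protein, had 437 UMIs (1235 CPM) in 19 of the 54 1NMPP1 cells, against 153 UMIs (227 CPM) in 23 of the 62 VEH cells, and a single cell of the 1NMPP1 library held 49.2% of its UMIs. The chemokine Ccl8 was found in 6 cells of each library, with 117 and 49 UMIs, and Fcna, a ficolin, in 6 and 9 cells, with 73 and 58 UMIs. The gene that was lower, the lectin Cd209f, had 1 UMI in 1NMPP1 cells and 41 UMIs in 3 VEH cells. F13a1, coagulation factor XIII A, stood at a log2 ratio of 0.95 (0.72 to 1.18), the hemoglobin scavenger receptor Cd163 at 0.53 (0.03 to 1.01) and the platelet factor Pf4 at -0.15 (-0.31 to 0.00).

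The size and direction of the perivascular difference varied with the sex call. Female-called cells alone gave a median log2 ratio of 2.03 with 11 of 13 genes at least 2-fold higher, and male-called cells alone, 7 1NMPP1 and 27 VEH, gave -0.14 with 1 higher and 4 lower of 12. With every cell weighted alike the median was 1.05, and with each cell thinned to 1000 UMIs it was 1.09 over the 7 genes still measured. Without the cell that held most UMIs of each gene it was 1.48. Lyve1, Folr2, Ccl8 and Fcna rested on 12 cells or fewer in either library. The part of sex in the difference was not tested. In growth plate macrophages the same list had a median of -0.55 with 0 of 11 genes at least 2-fold higher and 2 lower, where 250 and 459 of 7677 genes lay past those limits.

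**Figure D3:**
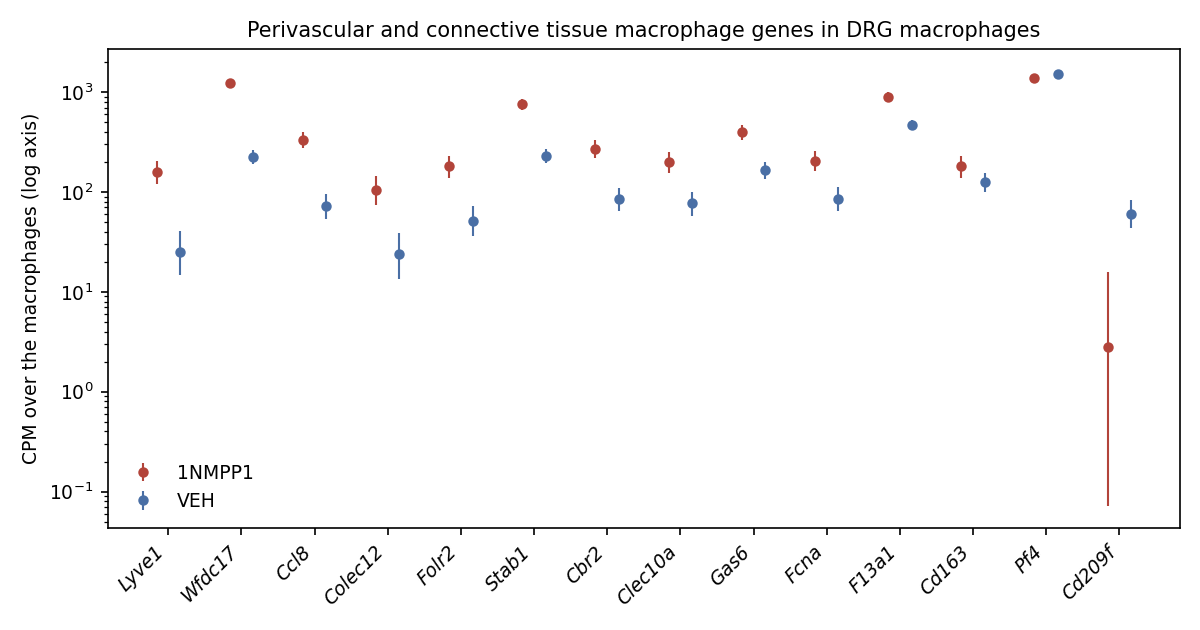
Points are the CPM of each perivascular list gene with at least 20 UMIs, summed over 54 1NMPP1 (red) and 62 VEH (blue) DRG macrophages, on a log axis, and bars are exact 95% Poisson intervals that cover counting error only. Lyve1 has the highest ratio, at log2 2.62, Pf4 is nearly level, and Cd209f lies far lower in 1NMPP1 cells on 1 UMI.

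Immediate early and dissociation stress genes, which respond within minutes to a stimulus and to tissue digestion, were the next highest list. Of 20 genes, 7 were at least 2-fold higher and 0 lower, 19 lay above 0 and the median log2 ratio was 0.84, against 0.03 over all 6185 genes. Klf2, a transcription factor that quiets inflammatory genes, had 472 UMIs (1334 CPM) in 38 of the 54 1NMPP1 cells, against 250 UMIs (370.4 CPM) in 32 of the 62 VEH cells, a log2 ratio of 1.85 (1.62 to 2.08). Egr1 had 1459 CPM in 1NMPP1 cells and 587 CPM in VEH cells, a log2 ratio of 1.31 (1.12 to 1.51), and Fosb 1597 CPM in 1NMPP1 cells and 705 CPM in VEH cells, a log2 ratio of 1.18 (1.00 to 1.36). The heat shock genes Hspa1a and Hspa1b, near-identical copies whose reads can be split between them, stood at log2 ratios of 1.21 and 1.37, Junb at 0.18 and Hsp90aa1 at -0.31. Unlike the perivascular list this one kept its direction in both sex calls, with medians of 0.73 in male-called and 1.10 in female-called cells. The same list summed to 20278 CPM in 1NMPP1 and 15313.5 CPM in VEH monocytes, and to 13717 and 10674 CPM in glia of those libraries. Over all kept barcodes other than macrophages it came to 11117 CPM in the 1NMPP1 and 10312 CPM in the VEH library, a smaller difference. The part of the library in the macrophage values was not tested. In macrophages the sums were 29276 and 18058.5 CPM.

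Of the measured genes of antigen presentation 8 of 9 lay above 0, and of complement 7 of 7, where the median log2 ratio over all 6185 genes was 0.03. The 2-fold counts of lists here and below stand beside 7.02% of all 6185 genes higher and 7.44% lower. In the MHC class II list 1 of 9 measured genes was at least 2-fold higher, Ciita, with 20 UMIs in 13 1NMPP1 and 15 UMIs in 8 VEH cells, and the median log2 ratio was 0.38. H2-Eb1 stood at a log2 ratio of 0.45 (0.36 to 0.54), H2-Aa at 0.48 (0.39 to 0.58) and Cd74 at 0.37 (0.32 to 0.43). In the complement list outside C1q, 2 of 7 genes were at least 2-fold higher. C4b, the fourth component of the cascade, had 131 UMIs (370.3 CPM) in 18 of the 54 1NMPP1 cells, against 33 UMIs (48.9 CPM) in 8 of the 62 VEH cells, a log2 ratio of 2.90 (2.36 to 3.52). The receptors C3ar1 and C5ar1 stood at log2 ratios of 0.34 and 0.12. Among genes for the uptake of apoptotic cells, 2 of 11, Gas6 and Stab1, were past 2-fold, and Mertk stood at a log2 ratio of 0.57.

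Lysosome genes were level, with 0 of 15 past 2-fold in either direction and a median of 0.03. In the lipid list 1 of 14 genes was higher and 2 were lower. Apoe, a lipid carrier and the most abundant gene of the list, had 23319.7 CPM in 1NMPP1 cells and 18948 CPM in VEH cells. Fabp5, a fatty acid binding protein, had 20 UMIs (56.5 CPM) in 8 of the 54 1NMPP1 cells, against 148 UMIs (219 CPM) in 17 of the 62 VEH cells, while glia carried 834 and 978 CPM. Gpnmb, a lysosomal glycoprotein, had 2 UMIs in a single 1NMPP1 cell and 51 UMIs in 4 VEH cells. The third gene past the limit, Fabp4, was higher on 13 UMIs of a single 1NMPP1 cell against 8 UMIs in 4 VEH cells. Spp1, osteopontin, was detected in 4 of 54 1NMPP1 and 15 of 62 VEH cells, with 45 and 162 UMIs and a log2 ratio of -0.90 (-1.43 to -0.43). Without the deepest cell of each library the lipid list had a median of 0.01. In the iron and heme list 1 of 12 was higher, the ferroxidase Cp at a log2 ratio of 1.01 (0.44 to 1.58), and 1 lower. The lower one, the transferrin receptor Tfrc, had 6 UMIs (17.0 CPM) in 4 of the 54 1NMPP1 cells, against 79 UMIs (117 CPM) in 14 of the 62 VEH cells.

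Chemokines split. Of 15 measured, 4 were at least 2-fold higher and 2 lower, with a median of 0.07. Ccl2 and Ccl12, ligands of CCR2 that draw monocytes, had log2 ratios of 1.25 (1.11 to 1.40) and 1.44 (1.24 to 1.64), the first with 878 UMIs (2482 CPM) in 37 of the 54 1NMPP1 cells, against 704 UMIs (1043 CPM) in 39 of the 62 VEH cells. Ccl6 stood at a log2 ratio of 1.38, with 60.6% of its 1NMPP1 UMIs in 1 cell. Cxcl10, an interferon-induced ligand of CXCR3, had 8 UMIs (22.6 CPM) in 3 of the 54 1NMPP1 cells, against 81 UMIs (120.0 CPM) in 11 of the 62 VEH cells, while glia carried 516 and 678 CPM. The part of free RNA in Cxcl10 and Fabp5 was not tested. Ccl5 had 1 UMI in 1NMPP1 cells and 218 in VEH cells, of which 1 cell held 99.5%. Cxcl2, a neutrophil attractant, lay just inside the limit at -0.99 (-1.11 to -0.87), with 2058 CPM in 1NMPP1 cells and 4093 CPM in VEH cells, and Ccl3 and Ccl4 stood at log2 ratios of -0.02 and 0.50. Male-called cells alone gave the chemokine list a median of -1.14 and female-called cells 0.63.

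Of the inflammatory cytokine list 1 of 13 was at least 2-fold higher and 1 lower. Nfkbiz, an inducible NF-kB cofactor, had 540 UMIs (1527 CPM) in 47 of the 54 1NMPP1 cells, against 365 UMIs (541 CPM) in 45 of the 62 VEH cells, a log2 ratio of 1.5 (1.30 to 1.69), and Ptgs2, the inducible cyclooxygenase, had 3 UMIs in 3 1NMPP1 and 22 UMIs in 9 VEH cells. The cytokines Il1b and Tnf stood at a log2 ratio of 0.43 (0.26 to 0.60) and -0.26 (-0.68 to 0.13). Among growth and repair factors 2 of 17 were higher and 4 lower. Bmp2, a bone morphogenetic protein, had 82 UMIs (232 CPM) in 13 of the 54 1NMPP1 cells, against 37 UMIs (54.8 CPM) in 13 of the 62 VEH cells, a log2 ratio of 2.07 (1.5 to 2.68). Sparc, a matrix protein, had 9 UMIs (25.4 CPM) in 5 of the 54 1NMPP1 cells, against 112 UMIs (166 CPM) in 21 of the 62 VEH cells, but glia of these libraries carried 2172 and 2446 CPM, and the part of free RNA in its level was not tested. Gdf15 had 46 UMIs (130.0 CPM) in 8 of the 54 1NMPP1 cells, against 215 UMIs (319 CPM) in 17 of the 62 VEH cells, a log2 ratio of -1.28 (-1.79 to -0.83), and Hbegf, an EGF receptor ligand, 10 UMIs (28.3 CPM) in 7 of the 54 1NMPP1 cells, against 47 UMIs (69.6 CPM) in 17 of the 62 VEH cells. Igf1, which supports axon growth, stood at a log2 ratio of 0.26 (-0.23 to 0.72).

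Receptors for neuronal and glial signals all lay above 0, with 2 of 12 past 2-fold and a median of 0.51, against 0.03 over all 6185 genes. Ptger4, the prostaglandin E2 receptor EP4, had 67 UMIs (189 CPM) in 27 of the 54 1NMPP1 cells, against 52 UMIs (77.1 CPM) in 24 of the 62 VEH cells, a log2 ratio of 1.29 (0.75 to 1.85). Calcrl and Ramp1, which together form the receptor for the sensory neuropeptide CGRP, had log2 ratios of 0.70 and 0.36, the first in 8 of 54 1NMPP1 and 10 of 62 VEH cells and the second in 14 of 54 1NMPP1 and 20 of 62 VEH cells. The interleukin-4 receptor chain Il4ra, at a log2 ratio of 1.30 (0.79 to 1.82), and the nuclear receptor Pparg, at 1.13 (0.64 to 1.61), were with Clec10a and Chil3 the 4 of 10 alternative activation genes past 2-fold. Chil3 was found in 2 1NMPP1 cells, of which 1 held 99.4% of its 179 UMIs.

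Interferon response genes divided as well, with 2 of 11 at least 2-fold higher and 4 lower. Ifi27l2a had 263 UMIs (743 CPM) in 38 of the 54 1NMPP1 cells, against 153 UMIs (227 CPM) in 38 of the 62 VEH cells, a log2 ratio of 1.71 (1.42 to 2.01), and Isg15, a ubiquitin-like modifier, 18 UMIs (50.9 CPM) in 10 of the 54 1NMPP1 cells, against 154 UMIs (228 CPM) in 11 of the 62 VEH cells, a log2 ratio of -2.13 (-2.96 to -1.46). A single VEH cell held 44.8% of the VEH UMIs of Isg15. Rsad2, an antiviral enzyme, was lower at a log2 ratio of -2.45, with 92.0% of its VEH UMIs in 1 cell. The glycolysis and hypoxia list had 1 of 12 genes higher and 0 lower with a median log2 ratio of -0.49, the lowest among the 19 lists with at least 3 measured genes. In it the glycolytic enzymes Pkm and Aldoa stood at log2 ratios of -0.91 and -0.83, and Gapdh at -0.63. Of 13 proliferation genes 0 were higher and 1 lower, and Mki67, a marker of cycling cells, had UMIs in 2 of 54 1NMPP1 and 9 of 62 VEH cells. Its shares were 3.70% (0.452 to 12.7%) and 14.5% (6.86 to 25.8%), beside 2.95% and 6.11% of glia, but with cells thinned to 1000 UMIs it was found in 1 of 49 1NMPP1 and 1 of 60 VEH macrophages. In the microglia-like list 0 of 11 were higher and 1, P2ry12 at a log2 ratio of -1.08 (-1.91 to -0.37), was lower, and the monocyte list had 2 higher and 2 lower of 10. The monocyte median of 0.19 was -0.65 without the deepest cell of each library. Of the dendritic cell list 2 of 10 genes were measured, 0 higher and 1 lower, at a median log2 ratio of -1.91.

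Genes with the widest ratios, found in at least 20% of the cells where they were higher and enriched there over the other barcodes, were named by rule. Hlx, a homeobox transcription factor, had 34 UMIs (96.1 CPM) in 17 of the 54 1NMPP1 cells, against 8 UMIs (11.9 CPM) in 8 of the 62 VEH cells, a log2 ratio of 2.95 (1.88 to 4.34). Tagap, a GTPase-activating protein of immune cells, had 54 UMIs (153 CPM) in 15 of the 54 1NMPP1 cells, against 19 UMIs (28.2 CPM) in 10 of the 62 VEH cells, a log2 ratio of 2.41 (1.66 to 3.28). Cmah, which makes the sialic acid Neu5Gc, stood at a log2 ratio of 2.06 (1.10 to 3.16), the RNA helicase Ddx60 at 2.05 (1.36 to 2.81), the Ral exchange factor Rgl2 at 1.91 (1.05 to 2.86) and Ly9, a SLAM family receptor, at 1.90 (0.88 to 3.07). Fam43a stood at a log2 ratio of 2.64 (1.68 to 3.80), and Rell1 at 2.80 (1.99 to 3.76) with 57.1% of its 1NMPP1 UMIs in 1 cell. C4b, Wfdc17, Bmp2 and Klf2, given above, complete the 12. Among male-called cells alone Wfdc17, Bmp2 and Ddx60 turned to log2 ratios of -0.19, -1.75 and -2.04, and with cells thinned to 1000 UMIs Fam43a stood at -0.19.

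Lower in 1NMPP1 macrophages was Antxr2, the anthrax toxin receptor that takes up collagen VI, with 28 UMIs (79.2 CPM) in 12 of the 54 1NMPP1 cells, against 205 UMIs (304 CPM) in 31 of the 62 VEH cells, a log2 ratio of -1.92 (-2.57 to -1.37). Txnrd1, the cytosolic thioredoxin reductase, had 35 UMIs (98.9 CPM) in 21 of the 54 1NMPP1 cells, against 236 UMIs (349.7 CPM) in 37 of the 62 VEH cells, a log2 ratio of -1.80 (-2.38 to -1.30). Fam129b had 11 UMIs (31.1 CPM) in 7 of the 54 1NMPP1 cells, against 92 UMIs (136 CPM) in 30 of the 62 VEH cells, a log2 ratio of -2.08 (-3.18 to -1.23). Mmp14, a membrane-bound matrix metalloproteinase, stood at -2.66 (-4.26 to -1.58) and Hilpda, a lipid droplet protein induced by hypoxia, at -2.44 (-3.48 to -1.64), with 55.1% and 55.8% of their VEH UMIs in 1 cell, and without the deepest cell of each library they stood at log2 ratios of -1.53 and -1.40. With all 3 C1q genes required, Hilpda stood at a log2 ratio of -0.58 and Capg at -0.36. Traf1, an adapter of TNF receptors, stood at a log2 ratio of -1.79 (-3.26 to -0.73), the transcription factor Runx3 at -1.73 (-3.21 to -0.66) and the actin-capping Capg at -1.64 (-2.66 to -0.83). Runx3 turned to a log2 ratio of 0.56 among male-called cells and to 0.29 with thinned cells. Entpd7 stood at a log2 ratio of -2.24 (-4.79 to -0.76), Fhad1 at -2.14 (-4.70 to -0.65) and Tex14 at -1.84 (-3.02 to -0.93). Among female-called cells Tex14 stood at 0.19. Single VEH cells held 39.5% of the VEH UMIs of Antxr2, 40.4% of Runx3, 47.5% of Capg and 49.3% of Tex14. Pank2, a pantothenate kinase, stood at a log2 ratio of -2.09, but 1 VEH cell held 80% of its VEH UMIs, and without the top cell of each library it stood at -0.11, and among male-called cells at 0.68.

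Macrophages of both DRG libraries were then set against those of both growth plate libraries, chosen by the same rule, in edgeR's quasi-likelihood test on the summed UMIs. The test had 2 libraries per tissue, 1 of each treatment, and 2 residual degrees of freedom. The spread behind its p-values and standard errors therefore holds the treatment difference, and sex calls were not balanced between treatments. Of 7381 genes outside the rule, 242 (3.28%) were higher in DRG macrophages and 118 (1.6%) lower at an adjusted p below 0.05, 360 (4.88%) in all. With treatment as a term in the model, 668 genes were called, 418 higher and 250 lower. Without that term, the count was 64 without the VEH growth plate library, 128 without the 1NMPP1 growth plate library, 782 without the VEH DRG library and 801 without the 1NMPP1 DRG library. Tissue and digestion protocol cannot be told apart, since ganglia were treated with papain, collagenase and dispase and growth plates with collagenase. Growth plate macrophages also carried neutrophil markers at 32669 CPM in the 1NMPP1 and 22150.4 CPM in the VEH library, where other barcodes carried 134829 and 144767 CPM. Leaving out all cells with 1% or more UMIs of other types gave 288 genes.

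Genes of both resident subsets were higher in DRG macrophages. Of the microglia-like genes 6 of 11 were higher and 0 lower, beside 3.28% and 1.6% of all genes, with a median log2 fold change of 1.44, against -0.02 over all genes tested. Fcrls, an Fc receptor-like gene of mouse microglia, had 429.7 CPM in 1NMPP1 and 329 CPM in VEH ganglia, against 28.8 CPM in 1NMPP1 and 15.7 CPM in VEH growth plate macrophages (log2 fold change 4.29 ± 0.38 (SE), adjusted p = 0.00137). Siglech, a sialic acid-binding receptor, had 31 and 47 UMIs in the 1NMPP1 and VEH ganglia and 0 in both growth plate libraries. Set against a floor of 3 UMIs over the growth plate group it was at least 35.8-fold higher (adjusted p = 0.00182). Gpr34 had 149.8 CPM in 1NMPP1 and 138 CPM in VEH ganglia, against 33.9 CPM in 1NMPP1 and 49.6 CPM in VEH growth plate macrophages (log2 fold change 1.95 ± 0.31 (SE), adjusted p = 0.011). Tmem119 and P2ry12, with log2 fold changes of 2.74 and 1.77, were also called.

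Of the perivascular genes 7 of 14 were higher and 0 lower, with a median log2 fold change of 1.89, also with Lyve1 at its bound. Cd163 had 181 CPM in 1NMPP1 and 126 CPM in VEH ganglia, against 8.47 CPM in 1NMPP1 and 9.68 CPM in VEH growth plate macrophages (log2 fold change 4.21 ± 0.40 (SE), adjusted p = 0.00137). Lyve1 had 0 UMIs in growth plate macrophages and was at least 33.5-fold higher against the same floor (adjusted p = 0.0187), a call lost without the VEH growth plate library, where the adjusted p was 0.0884. Cbr2, Clec10a, Gas6, Pf4 and F13a1 were called at log2 fold changes of 2.88, 2.48, 2.26, 1.87 and 1.63. Of the alternative activation list 4 of 10 were higher and 0 lower, Cd163, Clec10a, the lectin Mgl2 at a log2 fold change of 3.67 and the eosinophil attractant Ccl24 at 3.76. By contrast 1 of 16 core genes was called, higher and with a list median of 0.14, the lipopolysaccharide coreceptor Cd14, with 1549 CPM in 1NMPP1 and 1233 CPM in VEH ganglia, against 354 CPM in 1NMPP1 and 319 CPM in VEH growth plate macrophages (log2 fold change 2.23 ± 0.30 (SE), adjusted p = 0.00517).

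Of the MHC class II list 6 of 9 genes were higher in DRG macrophages and 0 lower, and H2-Eb1 had 4862 CPM in 1NMPP1 and 3549 CPM in VEH ganglia, against 1167 CPM in 1NMPP1 and 1056 CPM in VEH growth plate macrophages (log2 fold change 2.10 ± 0.32 (SE), adjusted p = 0.00798). H2-Aa and Cd74 stood at log2 fold changes of 1.86 and 1.95. In the complement list 4 of 7 were higher and 0 lower, with C5ar1 at 548 CPM in 1NMPP1 and 505 CPM in VEH ganglia, against 122 CPM in 1NMPP1 and 132 CPM in VEH growth plate macrophages (log2 fold change 2.23 ± 0.28 (SE), adjusted p = 0.00413) and C3ar1 at a log2 fold change of 1.74. C4b had 370.3 CPM in 1NMPP1 and 48.9 CPM in VEH ganglia, against 5.08 CPM in 1NMPP1 and 1.21 CPM in VEH growth plate macrophages (log2 fold change 6.21 ± 1.09 (SE), adjusted p = 0.0148), and its adjusted p was 0.106 without the VEH growth plate library.

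Of 15 chemokines 7 were higher and 0 lower. Ccl7, a ligand of CCR2, had 1397 CPM in 1NMPP1 and 926 CPM in VEH ganglia, against 28.8 CPM in 1NMPP1 and 81.1 CPM in VEH growth plate macrophages (log2 fold change 4.56 ± 0.48 (SE), adjusted p = 0.00188). Ccl2, Ccl12 and Ccl4 stood at log2 fold changes of 3.30, 4.02 and 3.03. Bmp2 had 232 CPM in 1NMPP1 and 54.8 CPM in VEH ganglia, against 3.39 CPM in 1NMPP1 and 7.26 CPM in VEH growth plate macrophages (log2 fold change 4.75 ± 0.76 (SE), adjusted p = 0.011), a call lost at an adjusted p of 0.0614 without the VEH growth plate library. Among receptors for neuronal and glial signals 4 of 12 were higher and 0 lower, among them the purine receptor P2rx7, the lysophosphatidic acid receptor Lpar6 and the oxysterol receptor Gpr183, at log2 fold changes of 1.95, 2.44 and 2.53. In the immediate early and dissociation stress list 9 of 20 were higher, led by Hspa1a with 1679 CPM in 1NMPP1 and 726 CPM in VEH ganglia, against 23.7 CPM in 1NMPP1 and 64.1 CPM in VEH growth plate macrophages (log2 fold change 4.92 ± 0.55 (SE), adjusted p = 0.00233). The other DRG barcodes also carried more Hspa1a, at 157 and 179 CPM, against 11.1 and 14.2 CPM in other growth plate barcodes, and the part of digestion in this list was not tested. Of the 13 interferon and 12 glycolysis genes none was called in either direction, nor any of 3 dendritic cell genes, where 1518 of all genes had an unadjusted p below 0.05.

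**Figure D4:**
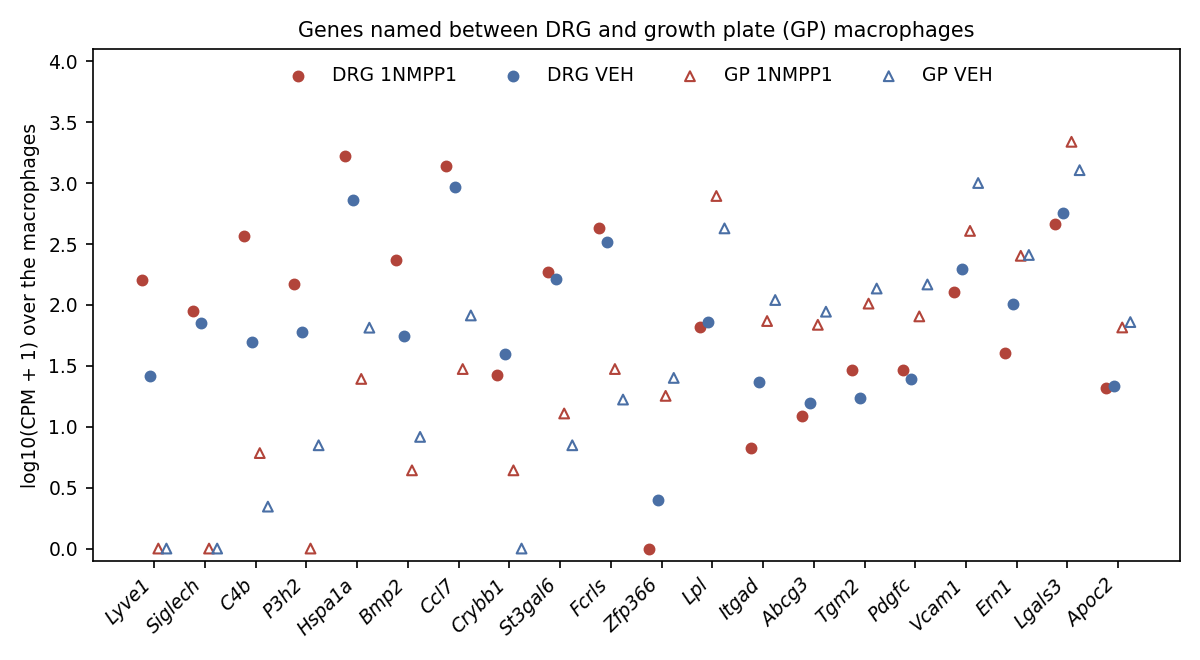
Points are log10 of CPM plus 1 summed over the macrophages of each library for the 20 genes named by rule, 10 higher and then 10 lower in DRG macrophages (filled circles) than in growth plate (GP) macrophages (open triangles), with 1NMPP1 in red and VEH in blue. The genes were chosen by fold change and adjusted p in this same contrast, so that the separation of the tissues follows from the choice. Lyve1 and Siglech had 0 UMIs in the growth plate.

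Of 18 proliferation genes 9 were lower in DRG macrophages and 0 higher. Birc5, a mitotic survivin, had 8.48 CPM in 1NMPP1 and 2.96 CPM in VEH ganglia, against 115 CPM in 1NMPP1 and 115 CPM in VEH growth plate macrophages (log2 fold change -4.30 ± 0.49 (SE), adjusted p = 0.00233), and Top2a and Mki67 stood at log2 fold changes of -2.94 and -1.65. The other growth plate barcodes carried more of these genes than the macrophages there, with Birc5 at 180.4 and 171 CPM, Top2a at 356 and 352 CPM against 146 and 244 CPM, and Mki67 at 327 and 333 CPM against 147 and 207 CPM in 1NMPP1 and VEH libraries. Of 11 monocyte genes 2 were lower, Plac8 at a log2 fold change of -3.42 and Ly6c2 at -1.98. Ly6c2 was detected in 22 of 47 1NMPP1 and 19 of 55 VEH growth plate macrophages, beside 3 of 54 and 3 of 62 in the ganglia. In the other growth plate barcodes Plac8 had 1038 and 917 CPM, and the part of free RNA in the proliferation and monocyte genes was not tested.

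The lipid list was mixed, with 2 higher and 2 lower of 14, Apoe at a log2 fold change of 1.42 and the fatty acid transporter Cd36 at 1.78 against Lpl and Lgals3. In the iron list Cp, Cd163 and the heme oxygenase Hmox1 were higher, Cp and Hmox1 at 3.58 and 2.04, and the iron exporter Slc40a1 was lower at a log2 fold change of -1.52. Of 13 inflammatory genes 0 were higher and 1 lower, Ptgs2 at a log2 fold change of -2.97, while the median of that list was 0.97. The uptake list had 2 higher, Gas6 and Cd36, and 1 lower, Tgm2, of 12, the growth and repair list 2 higher, Gas6 and Bmp2, and 1 lower, Pdgfc, of 17, and the lysosome list 1 higher of 16.

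Lpl, lipoprotein lipase, had 65.0 CPM in 1NMPP1 and 71.1 CPM in VEH ganglia, against 784 CPM in 1NMPP1 and 425 CPM in VEH growth plate macrophages (log2 fold change -2.96 ± 0.39 (SE), adjusted p = 0.00469), and its level in other growth plate barcodes was 12.9 and 14.3 CPM. The adhesion molecule Vcam1 had 127 CPM in 1NMPP1 and 197 CPM in VEH ganglia, against 405 CPM in 1NMPP1 and 1003 CPM in VEH growth plate macrophages (log2 fold change -1.90 ± 0.43 (SE), adjusted p = 0.0392). Tgm2, a transglutaminase, and Itgad, the integrin alpha-D chain of splenic and marrow macrophages, stood at log2 fold changes of -2.30 and -2.32, and Abcg3, Pdgfc, Ern1, Lgals3 and Apoc2 between -2.32 and -1.54. Zfp366 had 0 and 1 UMI in DRG against 10 and 20 UMIs in growth plate macrophages (adjusted p = 0.0476). All 10 lower calls but Lpl had an adjusted p of 0.05 or more without at least 1 library. Of the other genes named as higher, P3h2, a prolyl hydroxylase of collagen, and St3gal6, a sialyltransferase, stood at log2 fold changes of 4.94 and 4.49. Crybb1, a crystallin gene of immature microglia, had 9 and 26 UMIs in the 1NMPP1 and VEH ganglia, against 2 and 0 in the growth plate (adjusted p = 0.0187), and an adjusted p of 0.156 without the VEH growth plate library.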

How the data were processed

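Droplet single-cell libraries of lumbar DRG and of growth plate tissue, 1 library per tissue and treatment, were made with a 10x Genomics protocol, per the labels' protocols. The deposited values are UMI counts, not normalized, for each gene in each barcode. Per the file headers the authors used Cell Ranger 7.2.0, and per the submitters' processing notes the mm10 build. For the 10x chemistry and the annotation the sources used here give nothing. The libraries held 32791945 (DRG 1NMPP1), 57303894 (DRG VEH), 139703885 (growth plate 1NMPP1) and 102693014 (growth plate VEH) UMIs over 2612, 3675, 11807 and 9560 barcodes, and 4 to 40 barcodes were shared between pairs of libraries.

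Members and gene lists were chosen with earlier results of these data known. Counts were summed over members per library and given as CPM of all member UMIs. A log2 ratio adds 0.5 UMI to each sum and has an exact conditional binomial interval, levels have exact Poisson intervals and shares Clopper-Pearson intervals. PCR duplicates are merged by UMI, and intervals cover counting error only. Genes needed 20 UMIs over both libraries. DRG and growth plate sums were compared with edgeR 4.0.16 (TMM scaling, filterByExpr, quasi-likelihood test, Benjamini-Hochberg adjustment over all genes fitted), with DESeq2 1.42.0 as an alternative, in R 4.3.3. The labels name no separate animals, and p-values measure only the spread between libraries, which within a tissue holds the treatment difference. On simulated counts with the means and library sizes of this comparison, over 7417 genes, edgeR recovered 73% of genes changed 4-fold and 95% of genes changed 8-fold. Of 177 calls 9 were false. The simulation gave every gene the same relative spread and held no treatment difference within a tissue, so these rates need not hold for the real data. The ratio and its interval were also tested on simulated data.

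Genes named by rule were the 12 highest and 12 lowest ratios with 30 UMIs, detection in 20% of the members and a CPM 2 times that of other barcodes, and the 10 highest and 10 lowest fold changes past an adjusted p of 0.05 that were likewise 2 times above other barcodes. Examples within lists were chosen after their values were seen. A cell was called male with a Y-linked UMI and no Xist UMI, and female in the reverse case. Doublets were scored with Scrublet in scanpy 1.11.5, at 0.8% per 1000 barcodes, and were removed only in an alternative. Glia and monocytes used as a background were barcodes chosen by their own markers. Promoter stretches come from RefSeq, GRCm38.p6. Alternatives changed cell filters, doublets, sex calls, weighting, depth, UMI minimum, CPM total, scaling, model and libraries. Values of the targeted gene and of some list members are not reported here.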

Additional observations from a re-analysis of the deposited data

Results flagged for a closer look

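The perivascular and connective tissue list differed between tissues under the same contrast. Its median log2 ratio of 1NMPP1 over VEH was 1.51 in DRG macrophages and -0.55 in growth plate macrophages, with 10 of 14 and 0 of 11 measured genes at least 2-fold higher. The difference between the tissues was not tested, since each group has 1 library.

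The same list differed between sex calls within the DRG, at a median of -0.14 in male-called cells, 7 of the 1NMPP1 and 27 of the VEH library, and 2.03 in female-called cells, 35 and 21 in number. Chemokines did so as well, at -1.14 in male-called and 0.63 in female-called cells. Neither difference was tested.

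The reference of the count tables holds added sequences outside the genes of the mouse. UMIs of tdTomato, a red fluorescent reporter, came to 17.0 CPM in 1NMPP1 DRG macrophages, 6 UMIs in 2 of 54 cells, and to 5.93 CPM in VEH DRG macrophages, 4 UMIs in 4 of 62 cells. The shares of cells with a UMI, 3.70% and 6.45%, lay beside 2.79% and 5.60% of the other kept barcodes of those libraries.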

How the results depend on the processing

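No paired analysis was possible because each group has 1 library and the labels give no replicate numbers to pair by; treatment as a term in the tissue comparison, given below, sets the libraries of a treatment side by side. Leaving out the cell with most UMIs of each gene and leaving out the deepest cell of each library were chosen after seeing the data. The macrophage share gave log2 ratios of -0.16 to 0.39 in the other settings and 0.79 over barcodes without Ptprc and with few hemoglobin UMIs. The 894 genes past 2-fold became 120 of 942 with cells thinned to 1000 UMIs, 338 of 3391 with at least 50 UMIs and 4974 of 15477 with no minimum, and 48.5% of the 894 were higher, against 37.7% without mitochondrial, ribosomal and hemoglobin UMIs in the total and 59.8% in female-called cells. The 360 genes between tissues became 303 with DESeq2, 971 without the low-count filter, 668 with treatment as a term, 553 without the deepest cells, and 64 to 801 with 1 library left out, where the lone library is assumed to vary like the others. Direction turned in male-called cells for the perivascular list (-0.14), Wfdc17 (-0.19), Bmp2 (-1.75), Ddx60 (-2.04), Pank2 (0.68) and Runx3 (0.56), in female-called cells for Tex14 (0.19), and in thinned cells for Fam43a (-0.19) and Runx3 (0.29). The causes were not tested. Of the other list and gene values, 752 kept their direction and size or call, 56 moved and 25 lost their call. With 353742 and 674865 macrophage UMIs, genes under 20 UMIs were not read.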

Other observations

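Ccr2-positive cells of the growth plate were described beside those of the ganglia. Ly6c2 was detected in 0 of 14 Ccr2-positive DRG macrophages of the 1NMPP1 and 2 of 14 of the VEH library, and in 13 of 18 and 14 of 19 Ccr2-positive growth plate macrophages. The growth plate cells were deeper, at a median of 15006.5 and 14913 UMIs, where the DRG cells had 6954.5 and 12756 UMIs. Other growth plate barcodes also carried more Ly6c2 than the macrophages there, at 1022 and 888 CPM, so that the part of free RNA and depth in the detection was not tested. The MHC class II list had medians of 48956 and 42831 CPM in Ccr2-positive DRG cells of the 1NMPP1 and VEH libraries, and of 1730 and 1885 CPM in Ccr2-positive growth plate cells. Growth plate cells without Ccr2 had 848 and 1550 CPM. The difference between the tissues was not tested.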
